A study of Mus musculus with 71 samples.

Results

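Endoplasmic reticulum (ER) stress genes were followed in the whole blood of mice with HOCl-induced disease. The set was 10 genes chosen by symbol: Hspa5, Hsp90b1, Pdia4, Pdia6, Calr, Xbp1, Atf4, Ddit3, Atf6 and Ern1. All 10 were among the 10508 genes of the deposited expression table. The study tested monoclonal antibodies (mAb) against galectin-3, a sugar-binding protein, in a mouse model of systemic sclerosis. Female Balb/c AnNRj mice, a few weeks old at the start, received repeated injections of HOCl (hypochlorous acid) into the skin of the back. Control mice received PBS in its place, and the groups were kept in separate cages, so that cage and group cannot be told apart. The labels gave 11 control mice, 12 HOCl mice without antibody, and 12 HOCl mice each labelled E07, D11, D06 or BPR21. E07 and D11 are anti-galectin-3 mAb given under the skin, while the sources used here do not say what D06 and BPR21 are beyond the labels. The genotype label reads HOCL for every mouse, so group membership was taken from the sample titles. HOCl disease in this model is chemically induced in an inbred strain.

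Proteins that enter the secretory pathway fold in the ER with the help of chaperones and disulfide isomerases. When unfolded proteins build up, 3 sensors in the ER membrane respond: Ern1 (also called IRE1), which splices the Xbp1 message, Atf6, which is cut to release a transcription factor, and Eif2ak3 (PERK), which slows translation and raises the translation of Atf4. Atf4 in turn acts on amino acid and redox genes and on Ddit3 (CHOP), a factor linked to cell death, and 3 more kinases that sense haem, double-stranded RNA or amino acids reach Atf4 by the same step, the integrated stress response. In blood, plasma cells are the cells best known for a strong Xbp1 programme. Counts per gene show neither the splicing of Xbp1, nor the cutting of Atf6, nor the translation of Atf4.

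Chaperone promoters share a sequence that Atf6 and Xbp1 bind together with the factor NF-Y, the ER stress response element (ERSE). It was searched as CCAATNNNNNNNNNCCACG on both strands, in windows of 250 bases before to 50 bases after the start of each gene (RefSeq, GRCm38.p6). It was found in 4 of the 9 members with a window, and in 0.119% of all 32851 windows. The stretches are shown because the 4 members are all chaperones or folding enzymes, with the fixed letters of the element in capitals and 20 bases on either side. Each is written 5′ to 3′ on the strand of its gene, and capitals reading CGTGG and ATTGG mark an element on the opposite strand.
Hspa5, chr2:34772005-34772063, plus strand: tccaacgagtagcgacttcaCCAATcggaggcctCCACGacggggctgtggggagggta
Hsp90b1, chr10:86705618-86705676, minus strand: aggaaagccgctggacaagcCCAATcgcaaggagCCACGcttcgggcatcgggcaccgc
Hsp90b1, chr10:86705513-86705571, minus strand: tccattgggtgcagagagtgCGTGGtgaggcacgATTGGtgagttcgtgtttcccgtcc
Pdia6, chr12:17266471-17266529, plus strand: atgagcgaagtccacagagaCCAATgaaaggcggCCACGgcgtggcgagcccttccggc
Calr, chr8:84847055-84847113, minus strand: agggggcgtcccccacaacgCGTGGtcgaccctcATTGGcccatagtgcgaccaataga

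The element ended 46 bases before the start of Hspa5, 79 bases before that of Pdia6, 143 bases before that of Calr, and 193 and 88 bases before that of Hsp90b1. These exact letters were not in the windows of Pdia4, Xbp1, Atf4, Ddit3 and Ern1. The related elements UPRE (TGACGTGG, in 0.676% of windows) and ERSE-II (in 0.0365%) were in the window of 0 members. A match is a description of the letters and not a measurement of binding, and Atf6 had no window in the table.

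Blood RNA was enriched for poly A transcripts, depleted of globin and sequenced with a strand-specific kit. The totals were 11932855 to 15948972 counts per mouse. Members had 39 (Ern1, lowest mouse) to 4147 counts (Calr, highest mouse). Values are given on the vst scale of the authors, a log2-like scale on which a difference of 1 is close to a doubling, for 70 mice. HOCl mouse 8 had counts only, so that tests on vst values used 11 HOCl mice and tests on counts used 12. That mouse had the smallest total, the lowest Atf4 of the 71 mice (82.9 CPM, counts scaled to the library total, against 89.7 to 232.0 in the others) and the highest Ddit3 (57.7 CPM against 4.96 to 37.5). Its values do not enter any vst result. All 10 marker lists of blood cell types had genes above 0 in every group, and whole blood cannot tell fewer cells of a type from less RNA per cell.

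Per exon length, Atf4 and Calr were the most abundant members and Ern1 the least. The level is given as RPKM, the CPM divided by the exon length in kilobases (GENCODE vM39), which shares the depth of each library. The median over 71 mice was 66.7 RPKM for Atf4, 47.5 for Calr, 20.2 for Hspa5, 16.2 for Hsp90b1 and 8.97 for Xbp1. It was 6.65 RPKM for Pdia6, 3.47 for Ddit3, 3.46 for Pdia4, 2.3 for Atf6 and 1.01 for Ern1. Neighbours in this order overlapped in all 6 groups, except that Calr and Hspa5 overlapped in 4, and Hsp90b1 and Xbp1, and Pdia6 and Ddit3, in 5. Calr exceeded Hspa5 in 71 of 71 mice, whereas Ddit3 exceeded Pdia4 in 36, so that the order of that pair was not set. Reads of 6 members could partly belong to overlapping genes on the opposite strand, because the strand setting of the counting was not given in the sources used here. These were Hspa5 (Rabepk), Hsp90b1 (Gm66230), Pdia6 (Atp6v1c2), Xbp1 (Ccdc117), Ddit3 (Mars1, Mbd6 and Gm4189) and Atf6 (Gm9929). Whatever that setting, genes on the same strand overlap Hsp90b1 (Gm15344 and Gm54730), Pdia4 (Mir704), Ddit3 (Gm20492 and Gm66222) and Atf6 (Gm23523 and Gm25235).

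**Figure D1:**
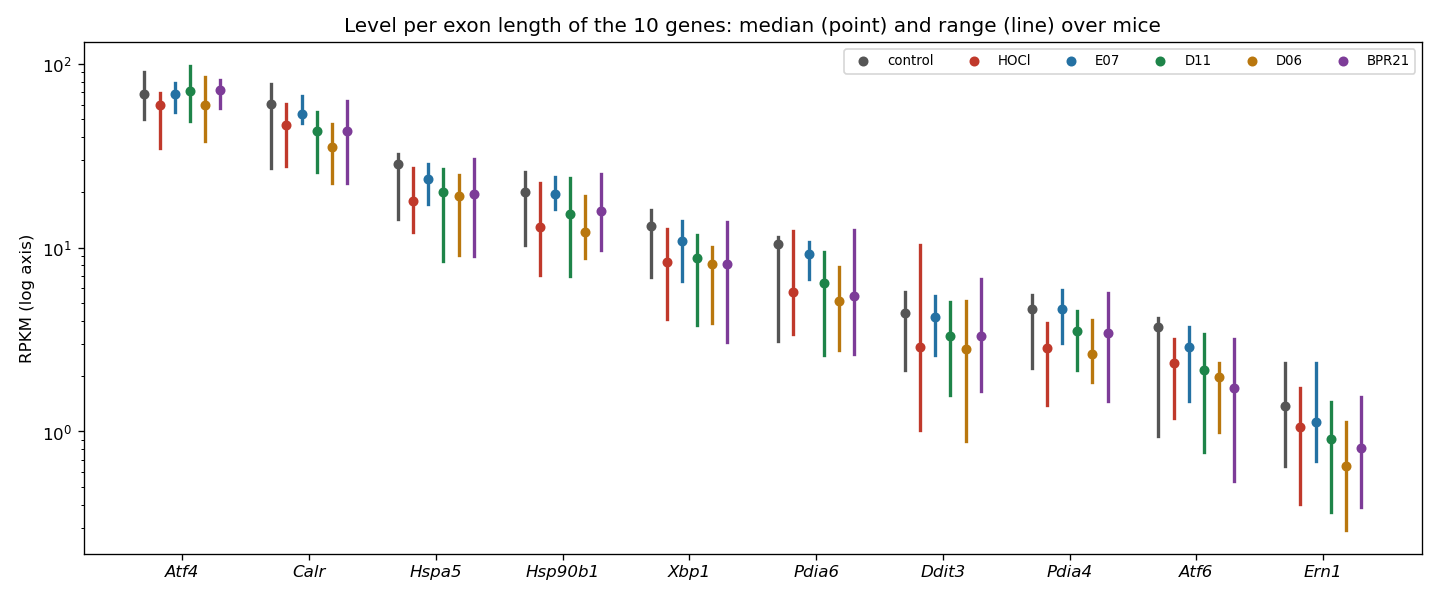
RPKM (log axis) of each gene in each group, with the median over mice as a point and the lowest to highest mouse as a line, for 11 control mice and 12 mice in every other group. The order runs from Atf4 (66.7 RPKM over all mice) to Ern1 (1.01 RPKM), and the ranges of Ddit3 and Pdia4 overlap in all 6 groups.

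Across the 6 groups Atf4 was the member that passed on the vst scale, and the one that did not pass when counts were scaled by library totals. The limma F test for any difference among the groups gave a Benjamini-Hochberg FDR of 0.00454 for Atf4, and 18.3% of all genes passed the same test. FDR was 0.0731 for Pdia6, 0.0734 for Atf6, 0.165 for Ern1, 0.185 for Calr and 0.186 for Hspa5. It lay between 0.351 and 0.672 for Hsp90b1, Pdia4, Xbp1 and Ddit3. The means of the groups lay within 0.45 of each other on the vst scale for Atf4 and within 0.15 for Pdia4, while the SD between mice of the same group was 0.29 for Atf4 and 0.19 for Pdia4. Atf4 did not pass once the platelet marker score of each mouse was added to the fit (FDR 0.692), nor with the erythroid marker score (FDR 0.173). Most other genes lost their call too: of 10508 genes, 244 passed with the platelet score and 355 with the erythroid score, against 1918 with neither. With total-count scaling, log2(CPM + 1), the FDR of Atf4 was 0.15, and the other 9 members passed with FDR from 0.000349 to 0.0123, where 74.9% of all genes passed.

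**Figure D2:**
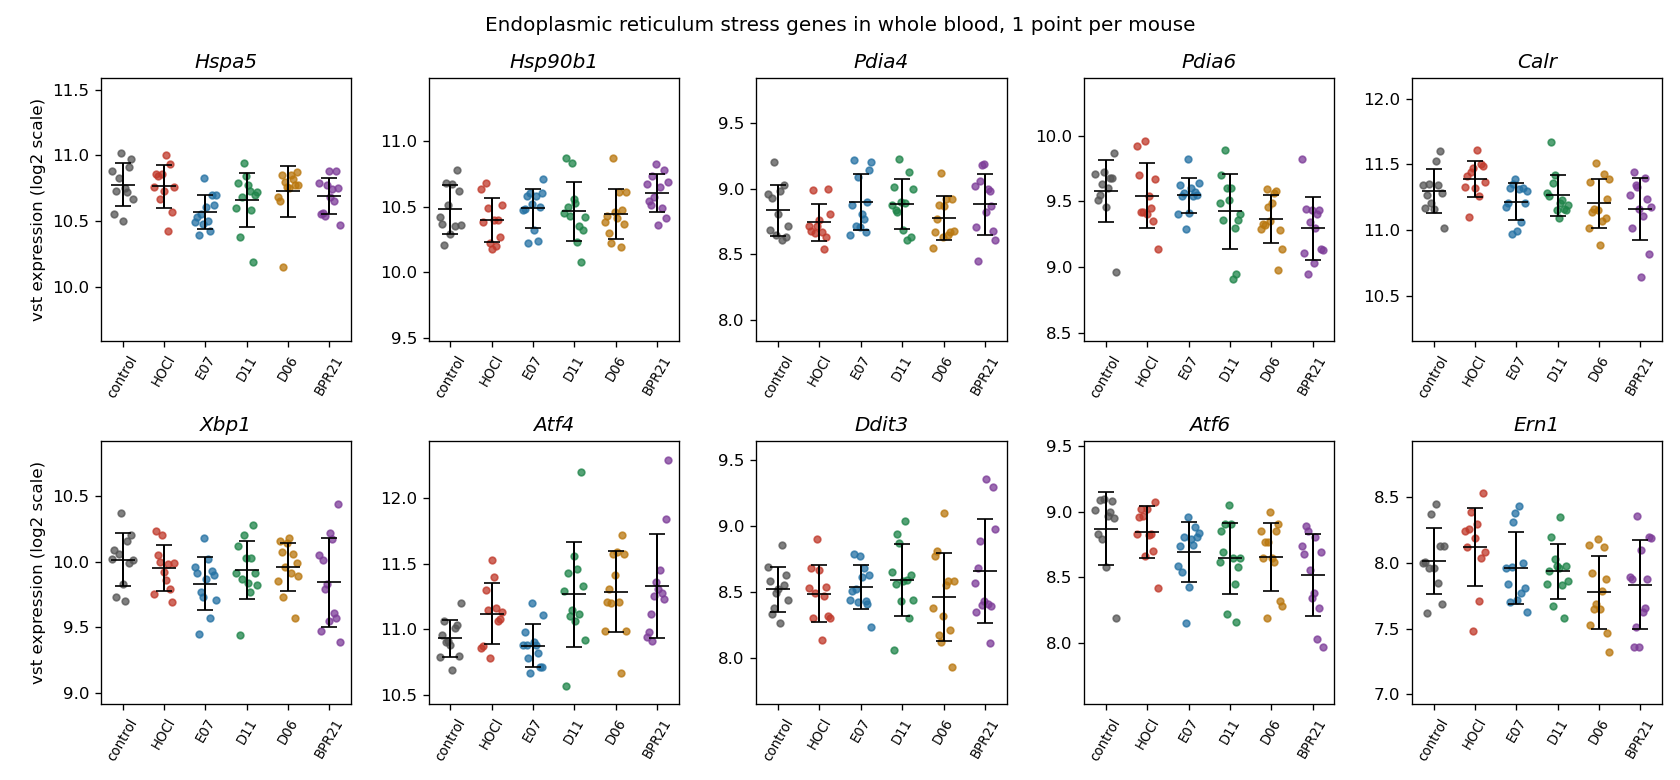
Expression of each gene on the vst scale (log2-like), with 1 point per mouse and the mean with its SD in black, for 11 control, 11 HOCl and 12 mice in each other group. Every panel spans the same height, and the groups of every gene overlap, with the highest Atf4 values in a BPR21 mouse (12.29) and a D11 mouse (12.2).

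Atf4 (ENSMUSG00000042406, chromosome 15, 80139372 to 80141745, GRCm39, plus strand) encodes the transcription factor of the integrated stress response. In control mice its vst value ran from 10.69 through a median of 10.91 to 11.2, and in HOCl mice from 10.78 through 11.13 to 11.53. E07 mice lay between 10.67 and 11.2 with a median of 10.88. E07 mice thus shared the range of the control mice, and HOCl mice overlapped both. D11 mice ran from 10.57 through 11.22 to 12.2, D06 mice from 10.67 through 11.26 to 11.72, and BPR21 mice from 10.91 through 11.26 to 12.29. The 3 groups D11, D06 and BPR21 therefore had higher medians and wider spreads, with an SD of 0.4, 0.31 and 0.39 against 0.14 in control mice and 0.16 in E07 mice.

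On the vst scale, E07 and D11 mice differed in Atf4. The means were 10.88 ± 0.16 and 11.27 ± 0.4 (SD, n = 12 each), a log2 fold change (E07 minus D11) of -0.39 ± 0.12 (SE) with FDR 0.043 in limma. All 12 E07 mice lay below the median of the D11 mice, although none lay below every D11 mouse. It was the 1 member of 10 past the thresholds of FDR at most 0.05 and fold-change at least 1.3, where 4.57% of all genes passed, and 6.45% passed the FDR alone. edgeR on the counts gave -0.44 (FDR 0.0242) and DESeq2 gave -0.46 (FDR 0.008). With total-count scaling the value was -0.01 (FDR 0.954), and the median level was 162.0 CPM in E07 and 170.0 CPM in D11 mice. Under that scaling Hsp90b1, Pdia4 and Pdia6 were called higher in E07 mice (0.42, 0.4 and 0.54), where 43.0% of all genes were called higher. Without D11 mouse 10, the highest mouse, the value was -0.3 and FDR 0.0533, and 17 of the 24 fits that left out 1 mouse lost the call.

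Atf4 was also higher in D06 and BPR21 mice than in E07 mice, in pairs of groups that were added after the data were seen. D06 mice exceeded E07 mice by 0.41 ± 0.1 (SE, FDR 0.00406), with 11 of 12 above the E07 median. BPR21 mice exceeded E07 mice by 0.45 ± 0.12 (SE, FDR 0.0199), with 12 of 12 above that median. Beside the 1 member called in each pair, 9.76% of all genes were called for D06 and 7.26% for BPR21. With the FDR alone the shares were 15.5% and 11.3%, and Pdia6 passed for BPR21 as well (log2 fold change -0.25, FDR 0.0456). When counts were scaled by the total of each library instead, Atf4 differed by -0.16 for D06 (FDR 0.259) and by 0.05 for BPR21 (FDR 0.652). Between D06 and D11, BPR21 and D11, and BPR21 and D06, 0 members passed in limma, edgeR or DESeq2 and 0 had an unadjusted p under 0.05, where limma called 0.0%, 0.0% and 0.0571% of all genes.

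The comparison of HOCl with control mice asked whether the disease model itself moved these genes in blood. 0 of 10 members passed both thresholds in limma, edgeR or DESeq2, where limma called 4.96% of all genes. The largest difference was that of Atf4, 0.19 ± 0.09 (SE, FDR 0.232), the 1 member with an unadjusted p under 0.05. Of the HOCl mice, 8 of 11 lay above the control median. The remaining log2 fold changes ran from -0.09 (Pdia4) to 0.11 (Ern1). The median over members was -0.04 and that over all genes was -0.016. For Hspa5 (BiP, the main ER chaperone of the Hsp70 family) the difference was -0.01, with a 95% confidence interval from -0.17 to 0.15. That interval lies within a fold-change of 1.3 in either direction.

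E07 mice were set against HOCl mice to ask what the antibody changed. 0 of 10 members passed both thresholds in limma, edgeR or DESeq2, while 7.89% of all genes did in limma. 3 members had an unadjusted p under 0.05, and with the FDR alone Atf4 passed (-0.24 ± 0.08 SE, FDR 0.049), where 15.0% of all genes passed. edgeR gave Atf4 a value of -0.18 (FDR 0.249) and DESeq2 one of -0.22 (FDR 0.165). With total-count scaling Atf4 was at 0.25 (FDR 0.0683), so that its sign depended on the scaling. Hspa5 was next: HOCl mice ran from 10.42 through a median of 10.76 to 11.0, and E07 mice from 10.39 through 10.54 to 10.83. The groups overlapped, with 11 of 12 E07 mice below the HOCl median, and the difference was -0.2 ± 0.07 (SE, FDR 0.057). Calr, a calcium-binding chaperone for glycoproteins, differed by -0.17 ± 0.07 (SE, FDR 0.0874), and all 12 E07 mice lay below the HOCl median of 11.41. DESeq2 gave Calr -0.21 (FDR 0.0319), past the FDR but not the fold-change, so that the tools differed on which member passed the FDR. Hsp90b1 (GRP94, the ER member of the Hsp90 family) and Pdia4 (a disulfide isomerase) had positive values, of which that of Pdia4 was the larger at 0.15. Against control mice, 0 members passed in E07 mice with any of the 3 tools and 2 had an unadjusted p under 0.05, where limma called 0.00952% of all genes. Atf4 then differed by -0.05 with a confidence interval from -0.19 to 0.09.

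**Figure D3:**
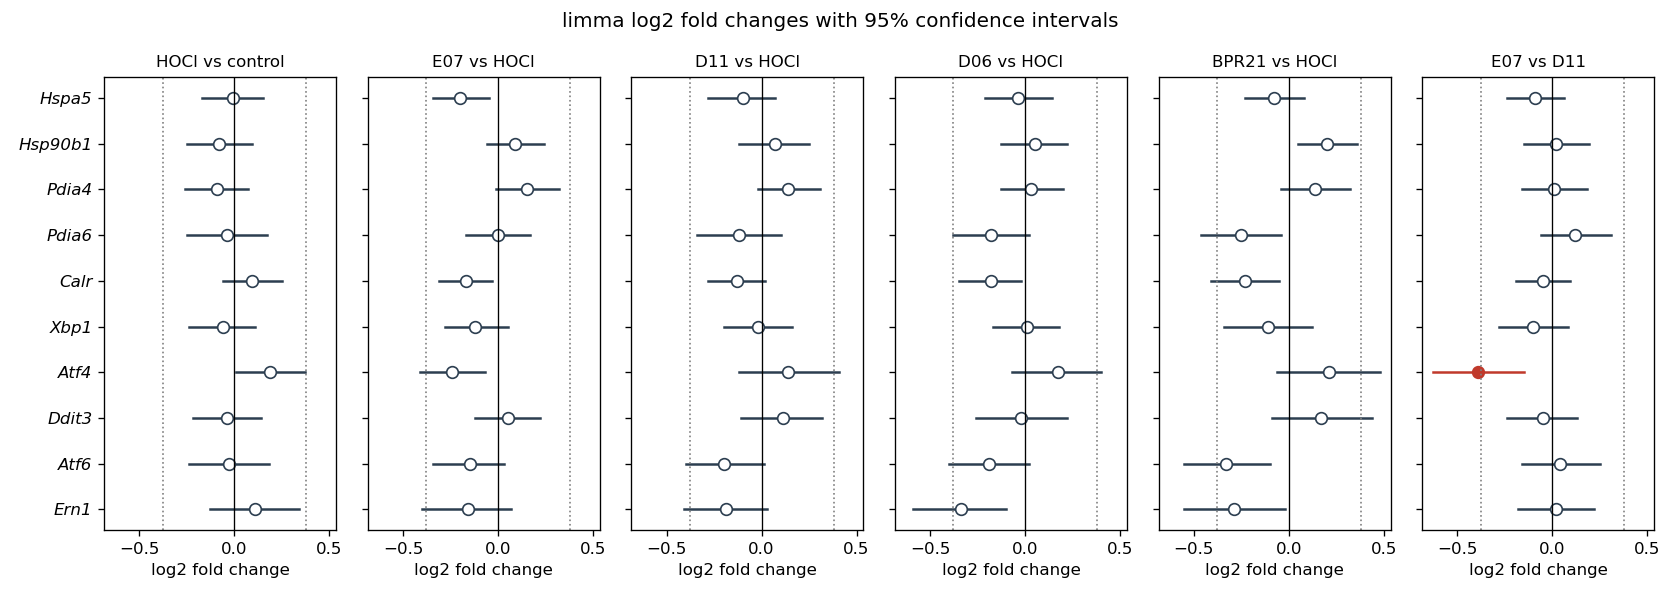
log2 fold change from limma on vst values with its 95% confidence interval for each gene in 6 comparisons, with dotted lines at a fold-change of 1.3 in either direction. The filled red point is the 1 value past both thresholds, Atf4 in E07 against D11 mice (-0.39), and open points did not pass.

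D11, D06 and BPR21 mice differed from HOCl mice in 0 of 10 members in limma, edgeR or DESeq2, and limma called 0.0571%, 0.133% and 0.638% of all genes. Unadjusted p was under 0.05 for 0, 2 and 5 members. Ern1, the sensor that cuts the Xbp1 message and the least abundant member, ran from 7.48 through a median of 8.19 to 8.53 in HOCl mice and from 7.32 through 7.74 to 8.18 in D06 mice. All 12 D06 mice lay below the HOCl median, and the difference was -0.34 ± 0.12 (SE, FDR 0.205). Atf6, the sensor that becomes a transcription factor, ran from 7.97 through 8.62 to 8.89 in BPR21 mice and from 8.42 through 8.83 to 9.07 in HOCl mice, a difference of -0.33 ± 0.11 (SE, FDR 0.154). The same BPR21 mice had lower monocyte markers, with 4 of 9 listed genes called lower and 0 higher, and monocyte markers held 0.0302% to 0.0903% of counts against 0.0457% to 0.119% in HOCl mice. Their part in the Atf6 value was not tested. Hsp90b1 was 0.2 ± 0.08 (SE, FDR 0.21) higher in BPR21 mice, and Pdia6 and Calr were 0.25 and 0.23 lower (FDR 0.265 and 0.233).

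Against control mice, D11, D06 and BPR21 mice again had 0 members past both thresholds in limma, where 0.0761%, 7.88% and 0.504% of all genes passed. Unadjusted p was under 0.05 for 1, 3 and 3 members. Atf4 had the largest value in each: 0.34 ± 0.12 in D11 (FDR 0.161), 0.36 ± 0.1 in D06 (FDR 0.0226) and 0.4 ± 0.12 in BPR21 mice (SE, FDR 0.0903). For D06 it passed the FDR but not the fold-change, where 10.0% of all genes passed the FDR, and edgeR (0.38, FDR 0.0222) and DESeq2 (0.4, FDR 0.00634) placed it past both. With at least 10 counts in at least 11 mice, or with no filter, edgeR gave Atf4 0.36 (FDR 0.0368 and 0.0491), short of the fold-change. For BPR21 it passed both in DESeq2 (0.48, FDR 0.0238) and not in edgeR (0.46, FDR 0.0668). 9 of 12 D06 mice lay above every control mouse. With total-count scaling the values were -0.02, -0.19 and 0.02 for D11, D06 and BPR21, with FDR of at least 0.259. Because these comparisons share control mice, they are not independent of each other.

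The scaling of the libraries moved the members together with the other genes. The 10 genes with most counts held a median of 18.7% of the counts in control mice, 25.7% in HOCl mice, 19.0% in E07 mice and 26.6% in D06 mice. With total-count scaling the median of all genes fell by 0.47 in HOCl against control mice, and that of the members by 0.51, with 7 members called lower, where 48.9% of all genes were. Against HOCl mice, E07 mice then had a median of all genes of 0.493 and a member median of 0.34, with 4 members called higher beside 62.5% of all genes. D06 mice against control had -0.568 over all genes and -0.63 over members, with 9 called lower beside 64.3% of all genes. The shift of the members relative to all genes was thus -0.04, -0.15 and -0.06 in these 3 comparisons.

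Erythroid and platelet marker scores (mean z-scored vst values of the listed genes) differed between the groups in unlike orders. The mean platelet score was -0.75 in E07, 0.19 in HOCl, 0.26 in D11, 0.59 in D06 and 0.45 in BPR21 mice. The mean erythroid score was -0.75 in E07 mice and highest in HOCl mice (0.68). It was 0.08 in D11, 0.61 in D06 and 0.1 in BPR21 mice. 17 of 18 listed erythroid genes were in the table and held 2.58% to 7.81% of counts in control, 6.16% to 13.2% in HOCl, 3.66% to 7.13% in E07, 3.99% to 9.3% in D11, 5.54% to 13% in D06 and 5.07% to 9.26% in BPR21 mice. 8 of 9 platelet genes (all but Gp1bb) were in the table and held 0.342% to 0.599% in control, 0.19% to 0.642% in HOCl, 0.352% to 0.543% in E07, 0.363% to 0.728% in D11, 0.278% to 0.727% in D06 and 0.402% to 0.735% in BPR21 mice. No listed gene of either kind in the table was at 0 in every mouse of a group. In E07 against D11 mice 4 of the 8 platelet genes were called lower, among them Pf4 (-0.59 ± 0.15 SE, FDR 0.0232) and Ppbp (-0.65 ± 0.14 SE, FDR 0.0211), which are granule chemokines of platelets. In D06 and in BPR21 against E07 mice all 8 were called higher. These calls are on the vst scale. Of all genes, 4.57% were called in E07 against D11, 9.76% in D06 against E07 and 7.26% in BPR21 against E07 mice. As a share of counts, the platelet genes held a median of 0.465% in E07, 0.509% in D11, 0.516% in D06 and 0.502% in BPR21 mice.

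Within groups, Atf4 followed the platelet markers more closely than any other list. The platelet score was the mean z-scored vst value of the 8 genes, and group means were removed from both measures. Pearson r was 0.8 and Spearman rho 0.66 over 70 mice, with a permutation p of 1e-05 for each, the smallest that 100000 permutations within groups can give. Adjusted over the 100 relations between 10 members and 10 marker lists, p was 0.001 for both. The relation held without the 2 mice farthest from the median score (r = 0.72). Within each group r was 0.75 in control, 0.36 in HOCl, 0.59 in E07, 0.94 in D11, 0.8 in D06 and 0.92 in BPR21 mice. With the platelet score as a covariate, the difference of E07 and D11 mice was -0.02 (FDR 0.944), that of D06 and E07 mice 0.02 (FDR 0.961) and that of BPR21 and E07 mice 0.08 (FDR 0.908). Both the score and Atf4 come from the same libraries, and whether platelet RNA sets the Atf4 level was not tested.

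**Figure D4:**
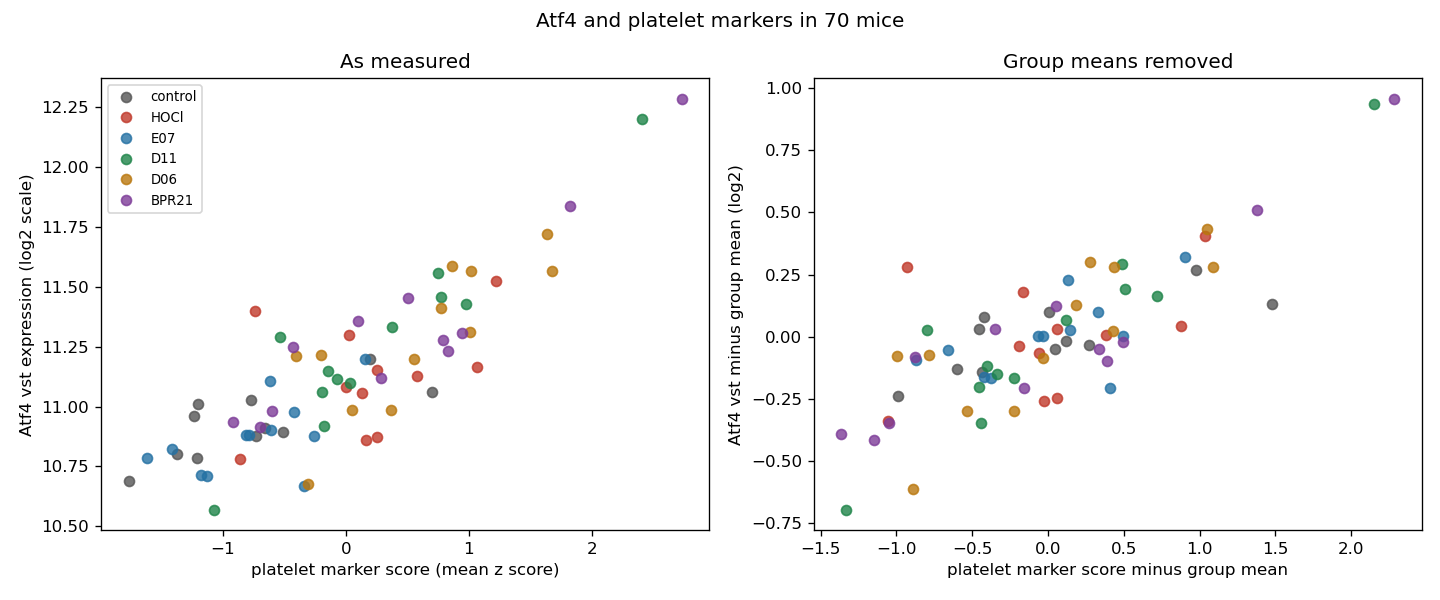
Atf4 on the vst scale against the platelet marker score of each of 70 mice, as measured (left) and with group means removed (right), coloured by group. Atf4 rises with the score in both panels (r = 0.8 with group means removed), and the 2 mice with the highest Atf4 have the 2 highest scores.

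The genes most like Atf4 were Tmsb4x (r = 0.86, rho = 0.77), Gng5 (r = 0.85, rho = 0.84) and Pdzk1ip1 (r = 0.85, rho = 0.79). This likeness is Pearson's r over 70 mice with group means removed, among 10498 genes that are no members, and 189 of them exceeded r = 0.7 with Atf4. For the other 9 members 0 genes exceeded 0.7. Calr was most like Eif3b (r = 0.68) and Eif3c (r = 0.66). Xbp1 was most like Tyrobp and Tpd52 (r = 0.62 each) and Lgals3 (r = 0.6), the gene of galectin-3. Atf6 was most like Unc93b1 (r = 0.62), Casp1 and Tor3a (r = 0.57 each). Hspa5 and Hsp90b1 shared Hnrnpk among their nearest genes (r = 0.54 and 0.59), beside Itgam and Zfyve9 for Hspa5 and Sh3kbp1 (r = 0.6) and Add3 for Hsp90b1. The nearest genes were Aak1 for Pdia4 (r = 0.53), 2700049A03Rik for Pdia6 (r = 0.52), Fxyd5 for Ddit3 (r = 0.55) and Rap1gap2 for Ern1 (r = 0.54).

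In all, 11 of the 100 relations between members and marker lists passed on r, 4 of them those of Atf4. Beside platelet markers, Atf4 went with erythroid markers (r = 0.44, rho = 0.3, permutation p = 0.00034, adjusted p = 0.0068) and ran against B cell markers (r = -0.49, rho = -0.45, permutation p = 0.00015, adjusted p = 0.00375). Xbp1, the factor spliced by Ern1, went with monocyte markers (r = 0.53, rho = 0.49, permutation p = 2e-05, adjusted p = 0.001), and r was 0.53 without the 2 farthest mice. Within each group r was 0.61 in control, 0.51 in HOCl, 0.62 in E07, 0.04 in D11, 0.17 in D06 and 0.8 in BPR21 mice, so that it was near 0 in D11 mice. Its r with plasma cell markers was 0.0, and all 8 plasma cell genes together held at most 0.0391% of counts in any mouse. Both Xbp1 and Atf6 had a negative r with T cell markers (r = -0.38 and -0.41, rho = -0.41 for each, adjusted p = 0.0106 for each). Of these 11 relations 5 also had an adjusted p of rho of at most 0.05, those of Atf4 with platelet and B cell markers, of Xbp1 with monocyte and T cell markers, and of Atf6 with T cell markers.

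The other 6 passed on r alone. Atf6 went with monocyte markers (r = 0.47, permutation p = 0.00012, adjusted p = 0.00375), with a rho of 0.34 (adjusted p = 0.0671) and an r of 0.39 without the 2 farthest mice. Pdia6, a disulfide isomerase, ran against the platelet markers (r = -0.45, permutation p = 0.00044, adjusted p = 0.00733), with a rho of -0.33 (adjusted p = 0.0727) and an r of -0.39 without the 2 farthest mice. For Atf4 with erythroid markers the adjusted p of rho was 0.121. Atf4 with proliferation genes and Xbp1 with neutrophil markers each had r = 0.39 (adjusted p = 0.0347 and 0.0299) and rho = 0.19, and r fell to 0.21 and 0.23 without the 2 farthest mice, so that both rested on those mice. Atf6 with B cell markers had r = 0.38 (adjusted p = 0.0315) and rho = 0.26. Hspa5, Hsp90b1, Pdia4, Calr, Ddit3 and Ern1 had 0 relations with an adjusted p of r of at most 0.05.

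Among the members themselves, the chaperones and isomerases went together only loosely. With group means removed, r over 70 mice was 0.45 for Hspa5 and Hsp90b1, 0.42 for Hsp90b1 and Pdia4, 0.37 for Hsp90b1 and Calr, and 0.33 for Hspa5 and Pdia6. The other 6 pairs of these 5 genes ran from 0.08 (Pdia4 and Pdia6) to 0.3 (Pdia6 and Calr). Atf4 and Pdia6 had the lowest r, -0.41. Xbp1 and Ddit3 had 0.35, and Pdia6 and Atf6 had 0.36. These values share the library and its scaling, and are given as a description.

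The wider pathway was covered by 6 lists: further ER chaperones, oxidative folding, ER-associated degradation, sensors and their regulators, targets of the integrated stress response, and the eIF2 kinases with their substrate. Of 72 listed genes 67 were in the table. In HOCl against control mice 2 were called higher and 0 lower, where 4.96% of all genes were called: Ppp1r15a (GADD34, which restores translation after eIF2 phosphorylation), by 1.03 ± 0.29 (SE, FDR 0.0334), and Eif2ak1 (HRI, the haem-sensing eIF2 kinase of red cells), by 0.83 ± 0.19 (SE, FDR 0.00879). In E07 against HOCl mice 0 were called higher and 5 lower, a share near the 7.89% of all genes called, namely Ppp1r15a (-1.14, FDR 0.00214), Eif2ak1 (-0.82, FDR 0.00388), Cebpb (-0.48, FDR 0.0292), Slc3a2 (-0.44, FDR 0.0177) and Vcp (-0.41, FDR 0.00559). Ppp1r15a differed between E07 and D11 mice as well, with the lower values in E07 mice (-0.68, FDR 0.0236). It was the 1 gene of 67 called there, beside 4.57% of all genes. In D06 against control mice 3 of 67 were called higher and 0 lower, where 7.88% of all genes were called. These were Ppp1r15a (0.98), Slc3a2 (0.43) and Derl1 (0.4), and with total-count scaling they differed by 0.5, -0.09 and -0.14. With total-count scaling Ppp1r15a was still 0.63 higher in HOCl than in control mice (FDR 0.0198) and differed by -0.73 in E07 against HOCl mice (FDR 0.00221). Eif2ak1 then differed by 0.45 and -0.4 (FDR 0.0348 and 0.0175), whereas the values of Slc3a2 and Vcp in E07 against HOCl mice were 0.01 and 0.06. With the erythroid score as a covariate none of these genes was called, and Ppp1r15a differed by -0.33 in HOCl against control mice (FDR 0.326) and by 0.14 in E07 against HOCl mice (FDR 0.776). The mean of that score was itself -0.73 in control, 0.68 in HOCl and -0.75 in E07 mice. In the F test over the 6 groups, 355 of 10508 genes passed with the score and 1918 without it. The part of red cell RNA in the values of these genes was not tested.

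Further chaperones, folding enzymes and sensors had 0 calls in the main 2 comparisons. Of 15 further chaperones 0 passed in HOCl against control and in E07 against HOCl mice, and the most abundant, Ppib and Canx, differed from control by -0.08 and -0.02 in HOCl mice. Median log2 fold changes of the chaperone list were -0.05 and 0.06, beside -0.016 and 0.022 over all genes. Of 10 oxidative folding genes and 7 sensors or regulators 0 passed in either, and Pdia3, the most abundant folding gene, differed by -0.2 (FDR 0.0996) in HOCl mice. Targets of the integrated stress response had a median of 0.14 in HOCl against control and of -0.18 in E07 against HOCl mice. In pairs with E07 added later, D06 mice had 6 of the 67 genes called higher, a share near the 9.76% of all genes called, with Ppp1r15a at 1.09 (FDR 0.000102), Asns, an asparagine synthase, at 0.65 (FDR 0.0325), Slc3a2 at 0.46 (-0.08 with total-count scaling) and Atf3 at 0.42. In BPR21 mice, where 7.26% of all genes were called, Ppp1r15a (0.74, FDR 0.0283) and Derl1 (0.41, or 0.01 with total-count scaling) were higher, and Txndc5, a disulfide isomerase that plasma cells make in large amounts, was lower (-0.39, FDR 0.0177).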

How the data were processed

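Terminal whole blood of 71 mice was sequenced, and groups followed the sample titles. Mice were separate animals. The authors trimmed reads with Cutadapt, aligned them to mm39 with STAR and counted reads per gene with featureCounts. They deposited raw counts for 55416 genes and 71 mice, and vst values of DESeq2 (log2-like), in which only protein-coding genes with enough expression were kept, 10508 in 70 mice. The annotation release and the versions of Cutadapt, STAR and featureCounts were not given in the sources used here. Columns without a sample numbered 0, rows without a gene name 0 and identical count columns 0. Totals were 11932855 to 15948972 counts, and counting error limits the genes with few counts. Of the vst genes, 10505 were matched to counts, 4 of them (Ddit3 included) as the only identifier of that symbol with counts.

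vst values of the groups compared were fitted with limma 3.58.1 in R 4.3.3 over all genes (FDR at most 0.05 by Benjamini-Hochberg, fold-change at least 1.3), and a moderated F test over all groups used FDR alone. Alternatives were edgeR 4.0.16 (quasi-likelihood, TMM) and DESeq2 1.42.0 on counts, edgeR with at least 10 counts in at least 11 mice or with no filter, log2(CPM + 1) or log2(CPM + 0.25) of the total count, one fit over all groups, FDR alone, a trend with robust variances, the erythroid or platelet score as a covariate, the mouse number as a block, and leaving out each mouse. The platelet covariate, the 5 pairs among D06, BPR21, D11 and E07 other than E07 with D11, and leaving out mice in pairs with E07, D11, D06 and BPR21 beside those against HOCl, were chosen after seeing the data. A test of counts planned for members outside the vst table was not needed. The scripts were tested on simulated data. Scores, permutations and sequence searches were run in numpy 2.4.6, pandas 2.3.3 and scipy 1.17.1 under Python 3.11.15. Exon lengths and gene positions came from GENCODE vM39 on GRCm39, and promoter windows from RefSeq on GRCm38.p6.

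Named were all members, the genes of each list past both thresholds (at most 4 a list and comparison), otherwise at most 2 with the highest mean, and up to 3 of the genes most like each member, of which 1 is not reported here. The members and lists were chosen with earlier results of these data known.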

Additional observations from a re-analysis of the deposited data

Results flagged for a closer look

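The level of Atf4 on the vst scale differed between groups of the same HOCl model. Between E07 and D11 mice the log2 fold change was -0.39, with the lower values in E07 (limma, FDR 0.043). Atf4 was higher in D06 than in E07 mice by 0.41 (FDR 0.00406), and higher in BPR21 than in E07 mice by 0.45 (FDR 0.0199). Each is a direct test of the difference between both groups, with 12 mice in each. In each pair 1 of 10 members was called, beside 4.57%, 9.76% and 7.26% of all genes in the same order. In E07 against D11, 7 of the 24 fits that left out 1 mouse kept the call. The last 2 pairs were chosen after seeing the data. With total-count scaling the values were -0.01, -0.16 and 0.05, and with the platelet score as a covariate -0.02, 0.02 and 0.08, in the same order, and none of these was called.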

How the results depend on the processing

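The 10 planned comparisons gave 0 members called, except E07 against D11 with 1, and the F test gave 1. With total-count scaling and a pseudocount of 1, the calls were 7 in HOCl against control, 4 in E07 against HOCl, 9 in D06 against control, 2 in BPR21 against control, 3 in E07 against D11, 9 in D06 against E07, 5 in BPR21 against E07 and 9 in the F test, all but Atf4. With 0.25 they were 6, 4, 9, 0, 3, 9 and 5, in the same order of comparisons. Under both, Hspa5 (-0.42) and Xbp1 (-0.44 and -0.45) in D06 against E07 turned to lower, as did Atf4 (-0.16). With a pseudocount of 1, 48.9% of all genes were called lower in HOCl against control and 64.3% in D06 against control. Called higher were 62.5% in E07 against HOCl and 43.0% in E07 against D11. Such shares are not given here for the other pairs or for 0.25, so those counts are not read as a result about the members. All genes shifted with the members. With a pseudocount of 1 their medians were -0.47, 0.493, -0.568, -0.381, 0.393, -0.595 and -0.406, in the same order of comparisons. The F test then passed 74.9% of all genes. In E07 against D11 Atf4 (-0.39) lost its call in one fit over all 6 groups (-0.39, FDR 0.0873), with the replicate block (-0.39, FDR 0.0563), with the erythroid (-0.3) or the platelet score (-0.02) as covariate, which left 0 members called, and with total-count scaling (-0.01). Both scores also took D06 against E07, BPR21 against E07 and the F test to 0. In that F test 244 of 10508 genes passed with the platelet score and 355 with the erythroid score. In D06 against control, edgeR on the vst genes, DESeq2 and the FDR alone gave 1, where the FDR alone passed 10.0% of all genes. Atf4 was not called there with the other edgeR filters. In BPR21 against control, DESeq2 and one fit over 6 groups gave 1, and the replicate block 2 (Atf4 and Atf6). The shares of all genes called in these pairs by edgeR, DESeq2, the one fit and the block are not given here. These counts are therefore not read as a result about the members. With the FDR alone in limma there was 1 in E07 against HOCl and 2 in BPR21 against E07, beside 15.0% and 11.3% of all genes. The replicate block gave 2 in the F test (Atf4 and Atf6, FDR 0.0323), where 1983 of 10508 genes passed. Same-numbered mice are different animals, and the rule that every pair correlates over 0.1 was met in 0 of the 15 comparisons. E07 against control mice came nearest, with 7 of 11 pairs over 0.1, the lowest at -0.126 and a mean of 0.146. The other fits with the block changed no count of calls. Leaving out 1 mouse gave 0 to 1 members in E07 against D11, D06 against E07, BPR21 against E07 and D06 against control, and 0 to 2 in BPR21 against control. The count fell to 0 without D06 mouse 10 (Atf4 0.37) in D06 against E07 and without BPR21 mouse 12 (Atf4 0.37) in BPR21 against E07. The log2 fold change of Atf4 in E07 against D11 ran from -0.45 to -0.3. The causes of these changes were not tested. Counts of 39 to 338 limit the precision for Ern1.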

Other observations

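Eosinophil and B cell markers moved in comparisons in which none of the ER stress genes passed both thresholds in limma. In D06 against control mice Atf4 passed both in edgeR and DESeq2. In E07 against HOCl mice 6 of 8 B cell genes were called higher and 0 lower, with a median log2 fold change of 0.52, beside 0.022 over all genes. Of all genes 7.89% were called, 92 of them higher and 737 lower. In D06 against control mice 3 of 4 eosinophil genes were called higher, with a median of 0.74, beside a median of -0.033 over all genes. Of all genes 7.88% were called, 764 of them higher and 64 lower.

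Plasma cell genes, the list in which Xbp1 is best known, had 1 of 8 called higher in E07 against HOCl mice and 1 of 8 lower in HOCl against control mice. Of all 10508 genes, 92 and 18 were called in these directions. The share of the counts held by the plasma cell genes ran from 0.00418% in a D06 mouse to 0.0391% in an E07 mouse. T cell markers had 0 of 8 genes called in either comparison in limma.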
